A study of Rattus norvegicus with 9 samples.

Results

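The values of 10 genes that control mitochondrial metabolism were followed in the rat right ventricle under pressure overload. These were the coactivators Ppargc1a and Ppargc1b, the nuclear receptors Ppara, Ppard, Rxra, Esrra, Esrrb and Esrrg, the transcription factor Nrf1 and the mitochondrial transcription factor Tfam. The genes were taken by symbol, from a choice made with earlier results of these data known, and for each the array feature annotated with that symbol alone was taken. All 10 had such a feature, 1 each, among the 29215 features of the array. All animals were male SD rats, and whole right ventricles were measured on 9 Affymetrix Rat Gene 1.0 ST arrays, 3 per group. The F+ and F- groups had undergone pulmonary artery banding (PAB), an operation that constricts the vessel leaving this chamber and so raises its load. At 4 weeks after banding, hearts with a fibrotic area above 6.5% formed the F+ group and those below it the F- group, so the 2 groups differ by an outcome of the same operation. The Sham group had a sham operation without banding. The sample records give the F- arrays only as pulmonary artery banding in their group field, and their titles name them F-. The methods state that hybridizations were performed 3 times and averaged, and whether each group was 3 animals is not stated, so p-values cover only the variation from array to array, possibly technical.

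PGC-1 coactivators, encoded by Ppargc1a and Ppargc1b, do not bind DNA themselves but are recruited by nuclear receptors and by NRF1 to the promoters of mitochondrial genes. PPAR receptors pair with RXR and drive genes of fatty acid uptake and oxidation, the main fuel pathway of the adult heart, while the estrogen-related receptors drive genes of the citric acid cycle and the respiratory chain. NRF1 acts on nuclear genes of the respiratory chain and on Tfam, whose product enters mitochondria, packages their DNA and starts its transcription.

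None of the 10 genes passed limma's test at an adjusted p of 0.05 in any of the 3 comparisons. The gene with the smallest p was Tfam, which was lower on every F+ array than on every F- array and higher on every F- array than on every Sham array. Rxra was lower on every F+ array and on every F- array than on every Sham array. For the other 8 genes the arrays of the groups overlapped in all 3 comparisons. The values below are the deposited ones, in arbitrary units on a scale that the sources used here do not give, and fold changes are differences of mean log2 deposited values. Each feature's level is compared between arrays only and not with the level of another feature.

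Tfam had deposited values of 51.1, 52.5 and 51.2 in F+, 54.1, 54.6 and 55.8 in F-, and 51.9, 52.5 and 52.5 in Sham. The 3 F- arrays were the highest of the 9, and the F+ and Sham arrays overlapped. The mean was 51.6 ± 0.781 in F+, 54.83 ± 0.874 in F- and 52.3 ± 0.346 in Sham (SD, n = 3 each). The log2 fold change of F+ against F- was -0.088 (95% confidence interval -0.143 to -0.032), with an adjusted p of 0.601 from limma. That of F- against Sham was 0.068 (0.012 to 0.124), with an adjusted p of 0.743 from limma, and that of F+ against Sham was -0.020 (-0.075 to 0.036). The comparisons share arrays: the F- arrays that stood above both other groups enter the differences of both F+ against F- and F- against Sham. Among all features, 1.1% had a p as small as that of Tfam or smaller in F+ against F-, and 2.5% in F- against Sham.

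The promoter of Tfam is shown because Tfam had the smallest p of the 10 genes, and it holds a copy of CCGGAAG, the binding letters of the ETS factors, which include GABP, the NRF2 factor of mitochondrial gene control. The sequence is from RefSeq, build GRCr8, chr20:17355123-17355422, plus strand, and runs from 250 bases before to 50 bases after the gene's start, with the motif in capitals.
Tfam: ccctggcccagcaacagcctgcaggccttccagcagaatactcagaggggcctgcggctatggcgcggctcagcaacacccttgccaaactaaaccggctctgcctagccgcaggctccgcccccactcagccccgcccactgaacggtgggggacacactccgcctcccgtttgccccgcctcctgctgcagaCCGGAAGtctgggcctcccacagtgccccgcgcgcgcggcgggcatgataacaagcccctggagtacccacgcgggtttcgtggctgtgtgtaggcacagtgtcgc
The motif began 56 bases before the start (position -56) on the plus strand. Searched on both strands, CCGGAAG was present in 8.75% of the 33469 RefSeq promoters of the same length. The search for NRF1's palindrome CGCATGCG found no copy in this window, which says only that these letters are not in it. Gabpa, which encodes the DNA-binding subunit of GABP and was named because of this motif after its values were seen, had 53.6, 55.5 and 52.7 in F+, 55.0, 54.7 and 56.1 in F-, and 53.7, 54.1 and 54.8 in Sham. The groups overlapped, with a log2 fold change of -0.035 for F+ against F- and an adjusted p of 0.777 from limma.

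Nrf1, which encodes nuclear respiratory factor 1, had the same value of 52.9 on all 3 F+ arrays. It had 52.1, 54.3 and 53.2 in F-, and 57.3, 52.7 and 51.9 in Sham. Sham array 1 was the highest of all 9 arrays and the groups overlapped in each comparison. The log2 fold change was -0.008 for F+ against F- (95% confidence interval -0.100 to 0.084), -0.027 for F+ against Sham (-0.119 to 0.064) and -0.019 for F- against Sham (-0.111 to 0.072). Without Sham array 1 the difference of F+ against Sham was 0.016 and that of F- against Sham was 0.024, both of the opposite sign. Equal values on all 3 arrays of the F+ group were found for 707 features, or 2.42%, and for 2 of the 10 genes, Nrf1 and Esrrb.

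**Figure D1:**
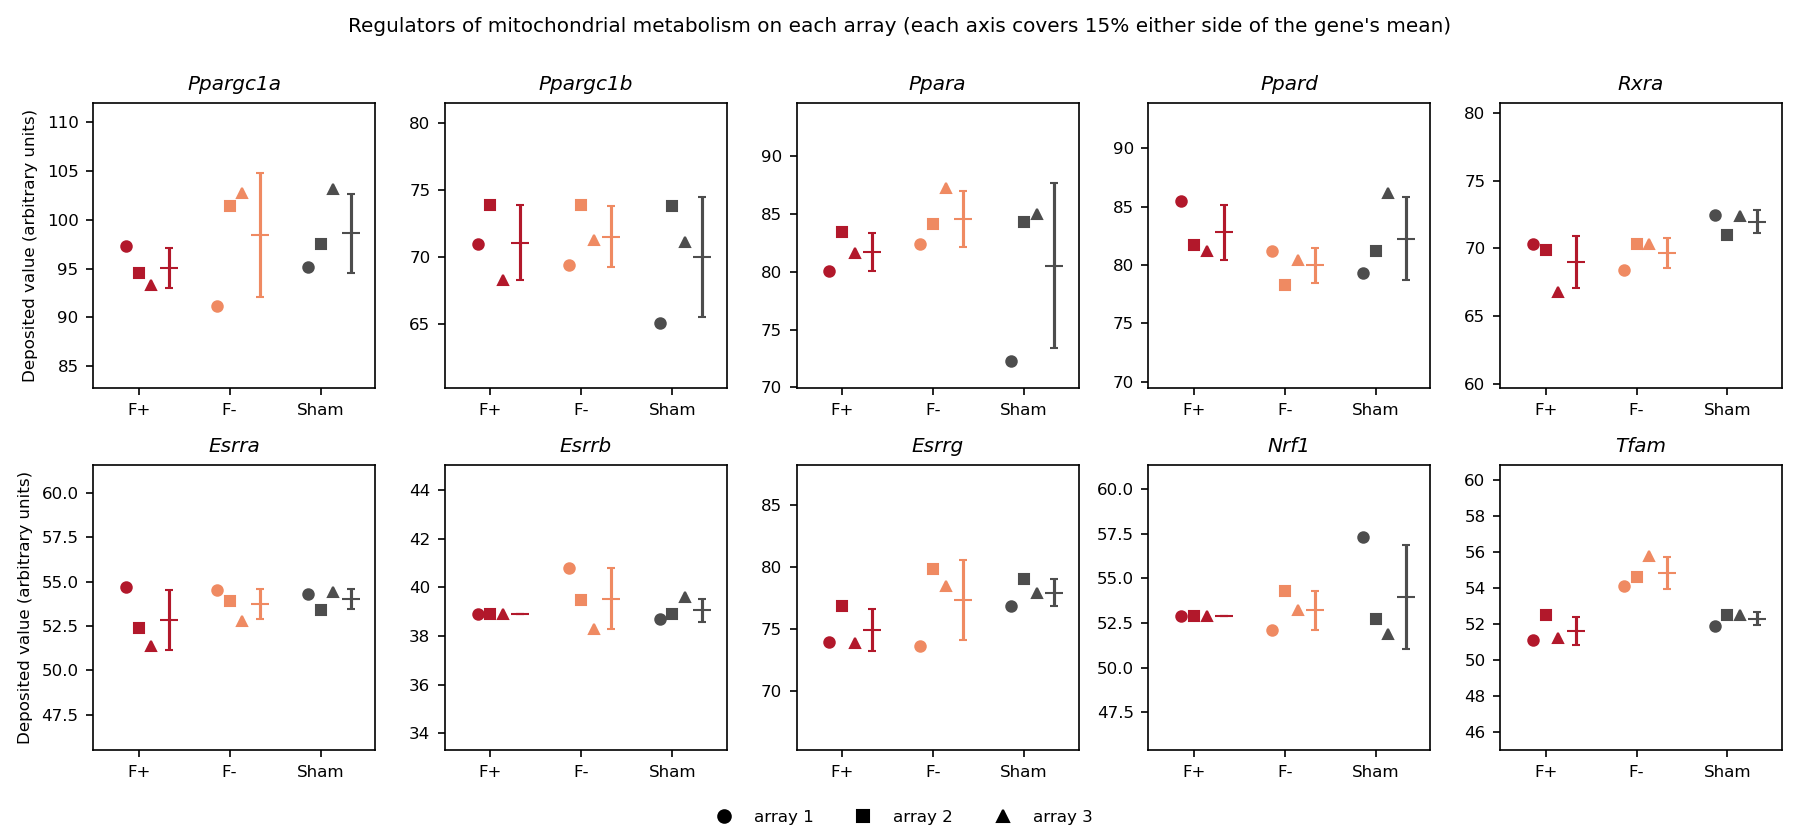
Deposited values (arbitrary units, vertical axes) of the 10 regulators on each of the 9 arrays, grouped as F+, F- and Sham. Points are arrays and the bar beside them is the group mean with its SD (n = 3), and each axis covers 15% either side of the gene's own mean and does not start at 0. The 3 F- points of Tfam lie above all others, and Sham array 1 is the lowest point for Ppara (72.3) and Ppargc1b (65.1) and the highest for Nrf1 (57.3).

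The coactivator Ppargc1a, which is induced by cold, fasting and exercise, had 97.3, 94.5 and 93.3 in F+, 91.2, 101.4 and 102.7 in F-, and 95.2, 97.5 and 103.1 in Sham. The lowest and 2 of the 3 highest values of the 9 arrays were in F-, so that group spanned both other groups nearly whole. The mean was 95.03 ± 2.05 in F+, 98.43 ± 6.3 in F- and 98.6 ± 4.06 in Sham (SD, n = 3 each). Its log2 fold change was -0.049 for F+ against F- (95% confidence interval -0.169 to 0.071; adjusted p = 0.833 from limma), -0.053 for F+ against Sham (-0.173 to 0.068) and -0.004 for F- against Sham (-0.124 to 0.116). Without F- array 1 the difference of F- against Sham was 0.050, of the opposite sign.

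The window before the Ppargc1a start is shown because it holds TGACGTCA, the full element bound by CREB, through which cAMP signals are known to raise Ppargc1a in liver and muscle. It is RefSeq GRCr8 sequence, chr14:63634058-63634357, plus strand, of the same extent, with the element in capitals. The window lies inside the gene as RefSeq annotates it (chr14:63073505-63729215), so it stands for 1 of the gene's start sites.
Ppargc1a: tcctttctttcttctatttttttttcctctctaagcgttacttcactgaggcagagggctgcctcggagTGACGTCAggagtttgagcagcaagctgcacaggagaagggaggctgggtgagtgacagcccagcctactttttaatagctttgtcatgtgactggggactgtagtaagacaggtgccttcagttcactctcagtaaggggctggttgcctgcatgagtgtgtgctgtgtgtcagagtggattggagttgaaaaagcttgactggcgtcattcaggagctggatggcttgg
The element began at position -181 from the start and was present in 1.83% of all promoters. Creb1, which encodes CREB and was likewise named after its values were seen, had 44.9, 46.2 and 46.2 in F+, 48.0, 46.2 and 46.2 in F-, and 45.5, 46.8 and 46.1 in Sham. The groups overlapped in all 3 comparisons, and the log2 fold change of F+ against F- was -0.032.

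The related coactivator Ppargc1b had 71.0, 73.9 and 68.3 in F+, 69.4, 73.9 and 71.3 in F-, and 65.1, 73.8 and 71.1 in Sham. Array 2 was the highest in every group, and Sham array 1 was the lowest of all 9. F+ against F- gave a log2 fold change of -0.010 (95% confidence interval -0.132 to 0.113), with 0.023 for F+ against Sham (-0.099 to 0.146) and 0.033 for F- against Sham (-0.090 to 0.155). Without Sham array 1 the differences from Sham were -0.028 in F+ and -0.019 in F-.

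Ppara encodes the PPAR that predominates in the control of fatty acid oxidation in heart and liver. It had 80.1, 83.4 and 81.6 in F+, 82.4, 84.1 and 87.2 in F-, and 72.3, 84.3 and 85.0 in Sham. Sham array 1 lay at a log2 difference of -0.148 from the nearest other array, and the other 8 arrays spanned 80.1 to 87.2. The mean was 81.7 ± 1.65 in F+, 84.57 ± 2.43 in F- and 80.53 ± 7.14 in Sham (SD, n = 3 each). The log2 fold change was -0.050 for F+ against F- (95% confidence interval -0.193 to 0.094; adjusted p = 0.861 from limma), 0.024 for F+ against Sham (-0.119 to 0.168) and 0.074 for F- against Sham (-0.069 to 0.217). Without Sham array 1 the differences from Sham were -0.051 in F+ and -0.002 in F-, so the sign of both rested on that array.

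The Ppara window is shown because it alone among those of the 10 genes holds the palindrome CGCATGCG of NRF1, another of the 10. It is RefSeq GRCr8 sequence, chr7:118712357-118712656, plus strand, with the palindrome in capitals.
Ppara: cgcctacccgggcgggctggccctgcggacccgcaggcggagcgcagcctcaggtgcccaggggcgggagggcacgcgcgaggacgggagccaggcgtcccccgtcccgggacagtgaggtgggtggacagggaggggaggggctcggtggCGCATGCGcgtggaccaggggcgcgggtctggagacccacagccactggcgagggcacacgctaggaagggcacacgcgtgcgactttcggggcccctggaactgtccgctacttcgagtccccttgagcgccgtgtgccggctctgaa
The window lies inside the gene as RefSeq annotates it (chr7:118712261-118780723), so it stands for 1 of the gene's start sites. The palindrome began at position -99 from that site, downstream of the annotated gene start, and was present in 1.66% of all promoters. On Sham array 1, Ppara had its lowest value and Nrf1 its highest, while on the other 8 arrays Nrf1 spanned 51.9 to 54.3. That is 1 array, on which Ppargc1b was lowest too, and a relation between Nrf1 and Ppara was not tested. A match of letters is a description of the sequence and not a measured site.

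Of the 10 genes, 9 had a promoter in the RefSeq table (Ppard was the other), and Esrrg had 4. None of these windows held TCAAGGTCA, the element of the estrogen-related receptors, found in 0.433% of all promoters. The windows shown above held no other searched motif than the 1 in capitals. Nor did any of the windows hold a pair of AGGTCA letters in direct repeat with 1 base between them, the element of PPAR and RXR, found in 0.0538%, or the MEF2 element, found in 0.565%.

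Ppard encodes the PPAR that is found in most tissues. It had 85.5, 81.7 and 81.2 in F+, 81.2, 78.3 and 80.4 in F-, and 79.3, 81.2 and 86.2 in Sham. It was the only one of the 10 genes with a positive difference in F+ against F-, at a log2 fold change of 0.050 (95% confidence interval -0.039 to 0.139; adjusted p = 0.777 from limma). The F+ and F- arrays met at 81.2. The differences from Sham were 0.010 in F+ (-0.078 to 0.099) and -0.040 in F- (-0.128 to 0.049), and without F+ array 1 the F+ difference from Sham was -0.013.

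Rxra, which encodes the usual partner of the PPARs on DNA, had 70.3, 69.9 and 66.8 in F+, 68.4, 70.3 and 70.3 in F-, and 72.5, 71.0 and 72.4 in Sham. All 6 arrays of banded hearts were below all 3 Sham arrays, and the F+ and F- arrays overlapped. The mean was 69.0 ± 1.92 in F+, 69.67 ± 1.1 in F- and 71.97 ± 0.839 in Sham (SD, n = 3 each). Against Sham its log2 fold change was -0.061 in F+ (95% confidence interval -0.127 to 0.005; adjusted p = 0.688 from limma) and -0.047 in F- (-0.113 to 0.019; adjusted p = 0.747 from limma), and F+ against F- gave -0.014 (-0.080 to 0.052). Both differences from Sham use the same 3 Sham arrays.

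Esrra encodes the estrogen-related receptor alpha, which acts with PGC-1 on respiratory chain genes. It had 54.7, 52.4 and 51.4 in F+, 54.5, 53.9 and 52.8 in F-, and 54.3, 53.4 and 54.4 in Sham. The F+ group held both the highest and the lowest of the 9 values. The log2 fold change was -0.025 for F+ against F- (95% confidence interval -0.094 to 0.044), -0.033 for F+ against Sham (-0.102 to 0.036) and -0.008 for F- against Sham (-0.077 to 0.061).

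Esrrg encodes the gamma receptor, which is abundant in heart and other oxidative tissues. It had 74.0, 76.9 and 73.9 in F+, 73.7, 79.9 and 78.5 in F-, and 76.9, 79.1 and 77.9 in Sham. The highest F+ array equalled the lowest Sham array at 76.9, and F- array 1 was the lowest of the 9. The log2 fold change was -0.045 for F+ against F- (95% confidence interval -0.129 to 0.038; adjusted p = 0.784 from limma), -0.057 for F+ against Sham (-0.141 to 0.026; adjusted p = 0.733 from limma) and -0.012 for F- against Sham (-0.095 to 0.071). Without F- array 1 the last was 0.023.

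Esrrb encodes the beta receptor, known best from embryonic stem cells and the inner ear. It had 38.9 on all 3 F+ arrays, 40.8, 39.5 and 38.3 in F-, and 38.7, 38.9 and 39.6 in Sham. The F- group held both the highest and the lowest value, and the log2 fold change was -0.023 for F+ against F- (95% confidence interval -0.089 to 0.043), -0.006 for F+ against Sham (-0.072 to 0.060) and 0.017 for F- against Sham (-0.049 to 0.082).

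**Figure D2:**
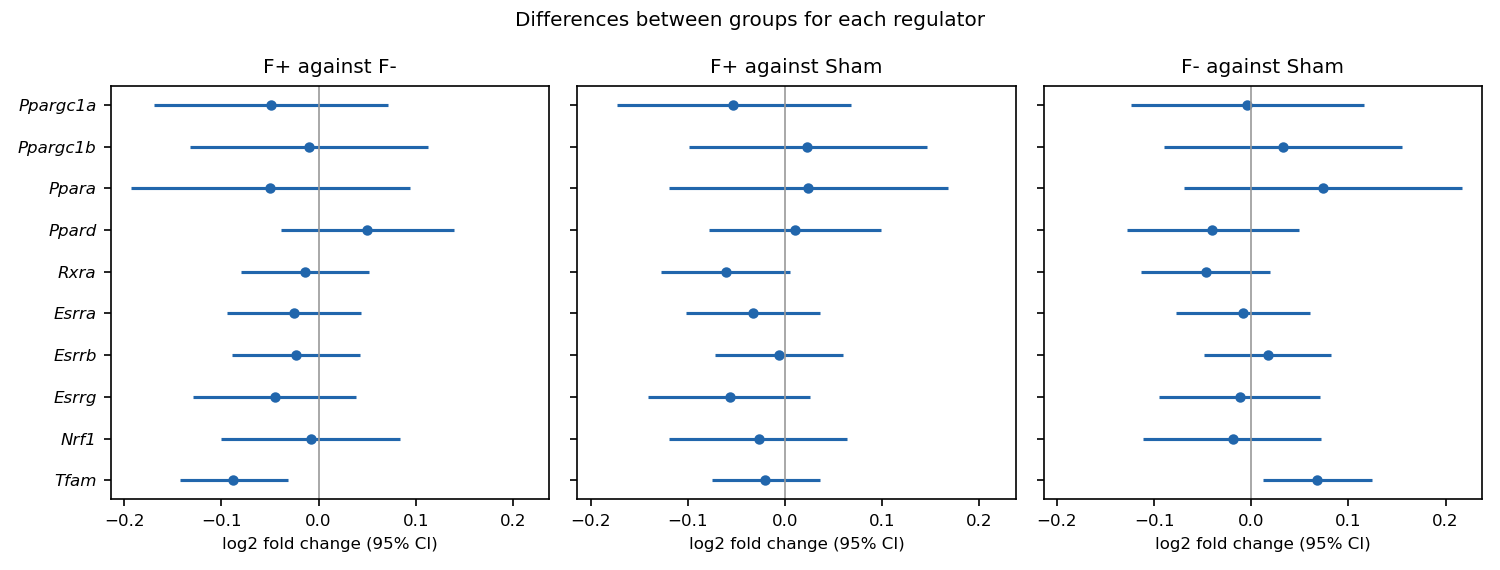
Log2 fold change (horizontal axis, differences of mean log2 deposited values) of each regulator in F+ against F-, F+ against Sham and F- against Sham, as points with 95% confidence intervals from limma before adjustment. The interval of Tfam leaves out 0 in F+ against F- (-0.143 to -0.032) and in F- against Sham (0.012 to 0.124), and all other intervals include 0.

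In F+ against F-, 9 of the 10 genes had a lower mean and 1 a higher mean, with a median log2 fold change of -0.024, beside -0.0023 over all features. Of the 10, 0 passed at an adjusted p of 0.05, as did 0.00342% of all features (1 of 29215), and 1 (Tfam) at an unadjusted p of 0.05, as did 7.41%. Every F+ array was lower than every F- array for 1 gene, beside 5.28% of all features, and higher for 0 genes, beside 4.46%. In F+ against Sham, 7 genes were lower and 3 higher, with a median of -0.023 beside -0.0035. Of the 10 genes, 0 passed with adjustment (0% of all features) and 0 without it (7.4%), and every F+ array was lower for 1 gene, Rxra (6.56%), and higher for 0 (5.69%). In F- against Sham, 6 genes were lower and 4 higher, with a median of -0.006 beside -0.0025. Of the 10, 0 passed with adjustment (0% of all features) and 1 (Tfam) without it (6.03%), while every F- array was higher for 1 gene, Tfam (5.15%), and lower for 1 gene, Rxra (4.64%). Without Sham array 1, or without F- array 3, 0 of the 10 passed without adjustment in F- against Sham. The counts were thus of the size that the shares over all features give for 10 genes. A p that misses the threshold does not show that levels were equal: the widest intervals, those of Ppara, reached a log2 difference of -0.193 in F+ against F- and 0.217 in F- against Sham. The SD of log2 values within groups ranged from 0.0191 for Tfam to 0.0813 for Ppara, with a median of 0.0437 over the 10 genes and 0.063 over all features.

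The summed value of the 10 genes was 659.5 to 677.0 in F+, 667.8 to 690.5 in F- and 663.5 to 694.1 in Sham, so the groups overlapped. The 14 cardiomyocyte markers, which include Myh6 at 152.7 to 154.9 in F+, 152.1 to 161.5 in F- and 144.6 to 161.2 in Sham, summed to 2098.7 to 2131.4 in F+, 2142.7 to 2153.1 in F- and 2107.3 to 2140.1 in Sham. The 3 F- arrays were the highest for this sum, but it held Myh7, at 112.3 to 159.1 in Sham. With Myh7 left out, the sums of F- and Sham overlapped. Of the 14 markers, 13 had a lower mean in F+ than in F- (median log2 fold change -0.020). The 9 macrophage markers summed to 556.7 to 603.4 in F+, 451.1 to 565.8 in F- and 472.4 to 497.9 in Sham, and all 9 had a higher mean in the F+ than in F- (median 0.233), although the sums of F+ and F- overlapped. Both the red cell and the mast cell sums separated the F+ arrays from F- and Sham. With Hbb (64.2 to 107.8 in F+, 47.8 to 52.6 in Sham) left out, the red cell sums of F+ and Sham overlapped. Leaving out Cpa3 (30.5 to 50 in F+, 21.7 to 25.9 in Sham) did the same to the mast cell sums. Every F+ array was higher than every F- array for 2 of the 5 red cell and 3 of the 6 mast cell markers. Kit was lower in F+ than in F- (-0.103). The 5 red cell markers summed to 149.8 to 217.6 in F+, 121.6 to 127.8 in F- and 130.4 to 141.9 in Sham, and the 6 mast cell markers to 154.4 to 180.5 in F+, 139.8 to 144.4 in F- and 141.1 to 152.8 in Sham. For the 6 markers of smooth muscle and pericytes the F+ and Sham sums overlapped, at 483.8 to 502.5 in F+, 465.4 to 472.4 in F- and 476.0 to 485.1 in Sham, and all 6 had a higher mean in the F+ than in F- (median 0.080). The 9 fibroblast markers summed to 769.1 to 836.7 in F+, 750.4 to 815.9 in F- and 742.7 to 787.1 in Sham. Endothelial markers, 7 in all, summed to 559.9 to 566.5 in F+, 546.2 to 563.6 in F- and 556.1 to 569.5 in Sham. Both sums overlapped between the groups, with medians of 0.023 and 0.027 in F+ against F-. The part of these markers in the values of the 10 genes was not tested, and in whole tissue fewer cells of a type and less RNA per cell cannot be told apart. The 8 fat cell markers, from a cell type that also uses these regulators, summed to 267.0 to 275.1 in F+, 257.5 to 269.2 in F- and 264.9 to 278.4 in Sham, and the groups overlapped. Of single arrays, Sham array 2 stood apart in the atrial gene Bmp10 (85.8, beside 15.5 to 18.9 on the other 8 arrays) and F- array 1 in Nppa (155.6, beside 37.0 and 43.6 in that group) and the macrophage sum (565.8). Sham array 1 had the lowest Myh6 (144.6) and the highest Myh7 (159.1) of the 9 arrays. With Sham array 2 and F- array 1 left out and Sham array 1 kept, the log2 fold change of Tfam was -0.097 in F+ against F- and 0.081 in F- against Sham.

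Genes that act with the 10 regulators, as receptors, coactivators, corepressors or kinases, were taken as a list of 33, of which 28 had a feature. In F+ against F-, 17 were lower and 11 higher (median -0.012), and 0 passed after adjustment. At an unadjusted p of 0.05, 1 was lower and 1 higher, beside 1099 lower and 1067 higher of all 29215 features. Without F- array 1, 22 were lower, 5 of them at that unadjusted level, whereas without F- array 2, or without F+ array 3, 14 were lower (median -0.001). The list had the same count of 0 after adjustment in the other comparisons. Rxrg, the muscle-enriched RXR and so an alternative partner to Rxra, had 78.9, 75.1 and 73.1 in F+, 81.5, 87.7 and 93.6 in F-, and 91.3, 88.3 and 88.3 in Sham. All F+ arrays were below all others, at a log2 fold change of -0.209 ± 0.053 (SE) against F- (adjusted p = 0.567 from limma) and -0.239 ± 0.053 against Sham (adjusted p = 0.6 from limma). Rxrb, the third RXR, named after its values were seen, overlapped between the groups, with 0.011 for F+ against F- and a range of -0.021 to 0.032 when each array was left out in turn. Nr2f2, an orphan receptor that is abundant in veins and atria and can compete for the same DNA elements, had 52.3, 45.1 and 44.6 in F+, 41.0, 42.8 and 41.3 in F-, and 45.9, 46.2 and 47.1 in Sham. The F- arrays were the lowest, at 0.179 for F+ against F- (adjusted p = 0.635 from limma; 0.105 without F+ array 1) and -0.154 for F- against Sham (adjusted p = 0.743 from limma). Lpin1, which coactivates PPARA with PGC-1, was lower on every F+ array (76.8, 78.1 and 76.8) than on every F- array (78.2, 83.7 and 83.3), at -0.081. Ep300, an acetyltransferase coactivator, was -0.061 in F- against Sham and -0.052 in F+ against Sham, with all arrays of both banded groups below Sham.

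Of 30 PPAR target genes of fatty acid use, 28 had a feature, and 26 of these had a lower mean in F+ than in Sham. Of the 28, 0 passed after adjustment, 17 were lower and 0 higher at an unadjusted p of 0.05, and 19 were lower on every F+ array than on every Sham array, with a median log2 fold change of -0.098 beside -0.0035 over all features. Over all 29215 features, 1140 were lower and 1023 higher at that unadjusted level, and 6.56% were lower on every F+ array. Without Sham array 1, where the summed value of the list was highest (3139.1, beside 2921.4 and 2941.6 on the other Sham arrays), 10 were lower at that unadjusted level, and 11 were without F+ array 2 or without F+ array 3. On that same array Ppara was lowest, so its value and the sum of its targets lay at opposite ends there. In F+ against F-, 24 of the 28 were lower, 4 of them at an unadjusted p of 0.05, with a median of -0.057. Over all 29215 features, 1099 were lower at that level and the median was -0.0023. That count of 4 was 0 without F- array 3, 1 without F- array 2, F+ array 2 or F+ array 3, and 7 without F- array 1. In F- against Sham, 26 were lower, 3 of them at that level, with a median of -0.046. Over all features, 866 were lower at that level and the median was -0.0025. That count of 3 was 1 without F- array 1, 2 without Sham array 1 or F- array 2, 6 without Sham array 2 or Sham array 3, and 8 without F- array 3, and both differences from Sham share the Sham arrays.

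Slc27a1, a fatty acid transporter, had 68.7, 61.8 and 67.9 in F+, 66.2, 70.2 and 70.0 in F-, and 92.4, 78.8 and 74.3 in Sham. All banded arrays were below all Sham arrays, at -0.303 for F+ against Sham (adjusted p = 0.604 from limma) and -0.245 for F- against Sham (adjusted p = 0.743 from limma). Decr1, a reductase needed to oxidize unsaturated fatty acids, was 60.6 to 66.1 in F+, 60.8 to 68.8 in F- and 71.6 to 84.8 in Sham, with -0.277 and -0.222 for the same comparisons. Without Sham array 1, the highest for both genes, F- against Sham gave -0.154 for Slc27a1 and -0.145 for Decr1. Cpt2 and Slc25a20, which carry acyl groups into the mitochondrion, separated F+ from both other groups. Cpt2 had 104.8, 106.3 and 105.5 in F+, 109.2, 110.9 and 112.4 in F-, and 113.2, 111.7 and 109.7 in Sham (-0.071 for F+ against F-, adjusted p = 0.637 from limma). Slc25a20 had 88.2, 83.8 and 84.3 in F+, 88.8, 92.5 and 92.8 in F-, and 96.4, 91.0 and 91.9 in Sham (-0.097, adjusted p = 0.651 from limma). Fabp3, the fatty acid binding protein of heart muscle, was likewise lower on every F+ array than on any other, at -0.065 against F-. Pdk4, which shuts off pyruvate oxidation and was named after its values were seen, was the other way round between the banded groups, with 113.7, 112.1 and 111.6 in F+, 99.9, 94.7 and 105.5 in F-, and 140.5, 112.3 and 109.3 in Sham.

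Of 30 target genes of the estrogen-related receptors in the citric acid cycle and respiratory chain, 26 had a feature. All 26 had a lower mean in the F+ than in F-, within a narrow range of log2 fold changes of -0.051 to -0.009 and a median of -0.032, and 0 of them passed at an unadjusted p of 0.05 (0 to 7 over the alternatives, with 7 on untransformed values and 2 without F- array 1). The count of lower means was 25 without F- array 1, alone or together with Sham array 2, and on leaving out any single F+ array. Over all features 15078 were lower and 14093 higher. In F+ against Sham 21 were lower (median -0.022), and in F- against Sham 7 were lower and 19 higher (median 0.012), also with 0 at that level. Without Sham array 1, 12 were lower in F- against Sham (median 0.002), and with median centring 2 were. Cs, citrate synthase, had 135.4, 138.4 and 133.2 in F+, 137.9, 141.1 and 142.6 in F-, and 138.5, 139.7 and 138.4 in Sham, and its difference of -0.051 in F+ against F- was the farthest from 0. Atp5f1a, the alpha subunit of ATP synthase, had 147.9, 147.7 and 147.5 in F+, 149.2, 154.0 and 152.7 in F-, and 151.8, 152.3 and 150.2 in Sham (-0.041 for F+ against F-). Slc25a4, the ADP and ATP carrier, was 152.1 to 154.1 in F+, 156.1 to 158.5 in F- and 156.2 to 159.7 in Sham (-0.037). Uqcrfs1, the iron-sulfur subunit of the cytochrome bc1 complex, and Idh3a, of the citric acid cycle, were 0.058 and 0.043 in F- against Sham, or 0.028 for Uqcrfs1 without F- array 1 and 0.017 for Idh3a without Sham array 1. These differences lie beside those of the cardiomyocyte markers, whose median in F+ against F- was -0.020.

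**Figure D3:**
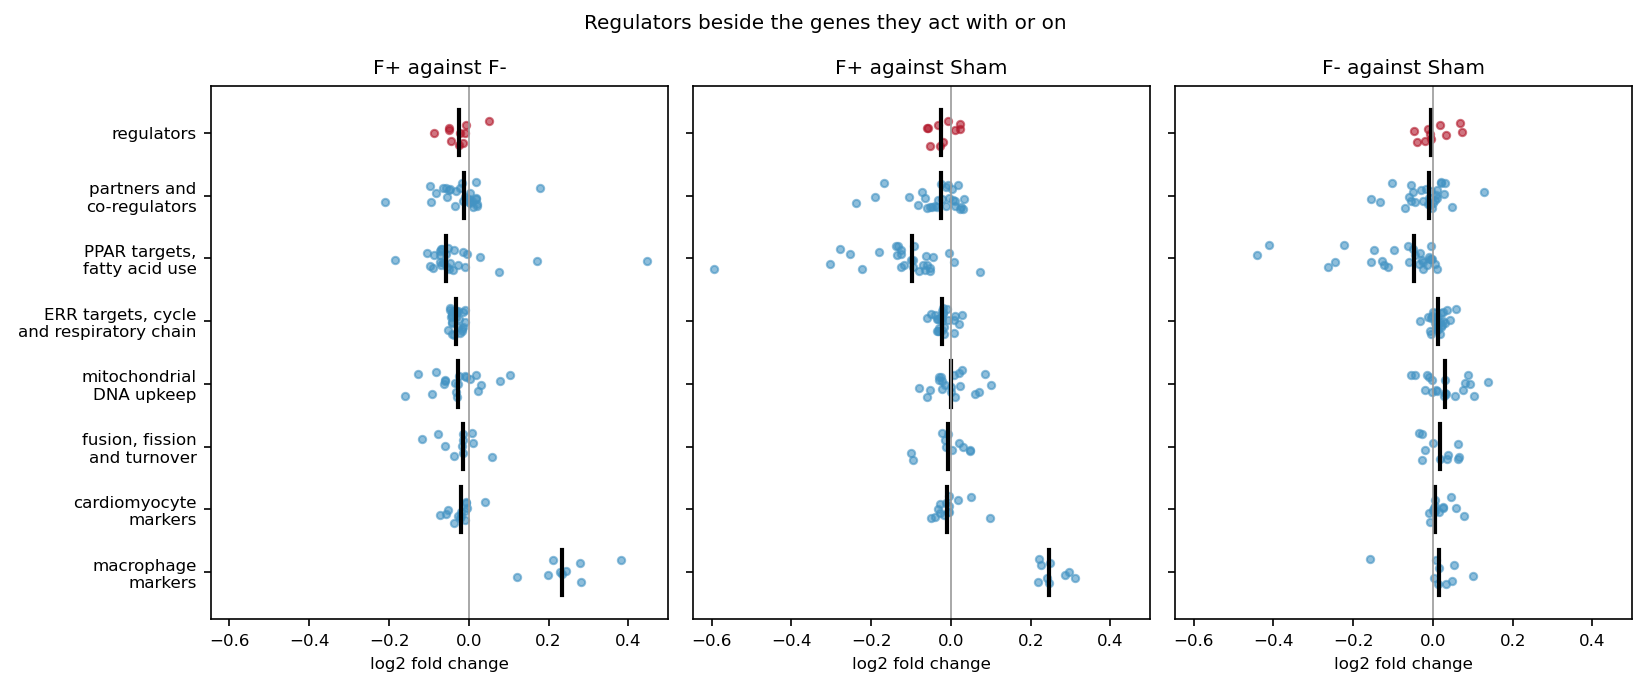
Log2 fold changes (horizontal axes) of the regulators, of the lists of genes that act with them or on which they act, and of the cardiomyocyte and macrophage markers, in the 3 comparisons. Each point is 1 gene, spread vertically for sight only, and the black bar is the list's median. The PPAR targets have medians of -0.057, -0.098 and -0.046, the targets of the estrogen-related receptors lie between -0.051 and -0.009 in F+ against F-, and the macrophage markers lie above 0 in both panels that hold F+.

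Genes that maintain and transcribe mitochondrial DNA, the process in which TFAM works, formed a list of 21, of which 20 had a feature. The list also held Tomm20 and Tomm70, receptors for protein import, and Alas1, an enzyme of haem synthesis. In F+ against F-, 14 were lower, 4 of them (Mterf4, Tfb2m, Dguok and Ssbp1, the last named after its values were seen) at an unadjusted p of 0.05, with a median of -0.027, beside 1099 lower at that level among all 29215 features. That count of 4 was 0 to 5 over the alternatives, with 0 without F- array 3, without F+ array 1 and with the replicate block, 1 without F+ array 2 or F+ array 3, and 2 without F- array 1 or F- array 2. In F- against Sham, 13 were higher, with a median of 0.030. Of these, 2 (Tfb2m and Tomm70) were higher at that level, beside 896 of all 29215 features. In F+ against Sham the median was 0.001, with 0 at that level. After adjustment 0 passed in any comparison. Tfb2m, the transcription factor that works beside TFAM at mitochondrial promoters, had 70.0, 68.9 and 70.4 in F+, 75.0, 71.3 and 75.1 in F-, and 66.4, 69.4 and 70.3 in Sham. The 3 F- arrays were the highest of the 9, at -0.081 for F+ against F- (adjusted p = 0.671 from limma) and 0.103 for F- against Sham (adjusted p = 0.743 from limma). Tfb2m was named by its statistics in both of these comparisons, which share the F- arrays, so the naming rule favours this pattern. The share of all features with the 3 F- arrays highest was not counted. Mterf4, which acts in mitochondrial ribosome assembly, had 50.7, 53.2 and 52.1 in F+, 58.7, 54.1 and 57.6 in F-, and 55.2, 55.7 and 50.9 in Sham. Its F+ arrays were all below its F- arrays, at -0.127 (adjusted p = 0.655 from limma). Dguok, a kinase that supplies mitochondrial DNA precursors, overlapped between F+ (74.5 to 78.3) and F- (78.2 to 85.5), with -0.091, or -0.060 without F- array 3. Tomm70, an import receptor of the outer membrane, had 64.3, 65.5 and 65.3 in F+, 68.9, 64.8 and 66.0 in F-, and 62.3, 62.0 and 62.8 in Sham, with all banded arrays above all Sham arrays (0.094 for F- against Sham and 0.060 for F+ against Sham).

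Of 13 genes of mitochondrial fusion, fission and turnover, 11 had a feature, with medians of -0.014 in F+ against F-, -0.008 in F+ against Sham and 0.017 in F- against Sham, and 0 passed after adjustment. At an unadjusted p of 0.05, 2 were lower in F+ against F- and 2 in F+ against Sham, beside 1099 and 1140 of all 29215 features. The median in F+ against Sham was 0.004 without F+ array 3, and that in F- against Sham was -0.009 without F- array 1. Fundc1, a receptor for the removal of mitochondria, had 55.3, 57.0 and 57.4 in F+, 60.1, 62.1 and 62.0 in F-, and 62.0, 60.4 and 59.6 in Sham. All F+ arrays were below all others, at -0.118 against F- (adjusted p = 0.533 from limma) and -0.101 against Sham (adjusted p = 0.616 from limma). Mtfr1, a regulator of fission, had its 3 highest values in F-, with 63.1, 65.6 and 62.2 in F+, 67.8, 65.9 and 67.8 in F-, and 62.9, 64.1 and 65.5 in Sham (-0.078 for F+ against F-). Mtfr1 too was named by its statistics in both comparisons that hold F-, a rule that favours this pattern. Pink1, a kinase of mitochondrial quality control, was -0.059 in F+ against F-, where the arrays overlapped. Its F+ arrays were all below Sham, at -0.094. Opa1, a fusion protein of the inner membrane, was 0.063 in F- against Sham and 0.049 in F+ against Sham, with all arrays of both banded groups above Sham.

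**Figure D4:**
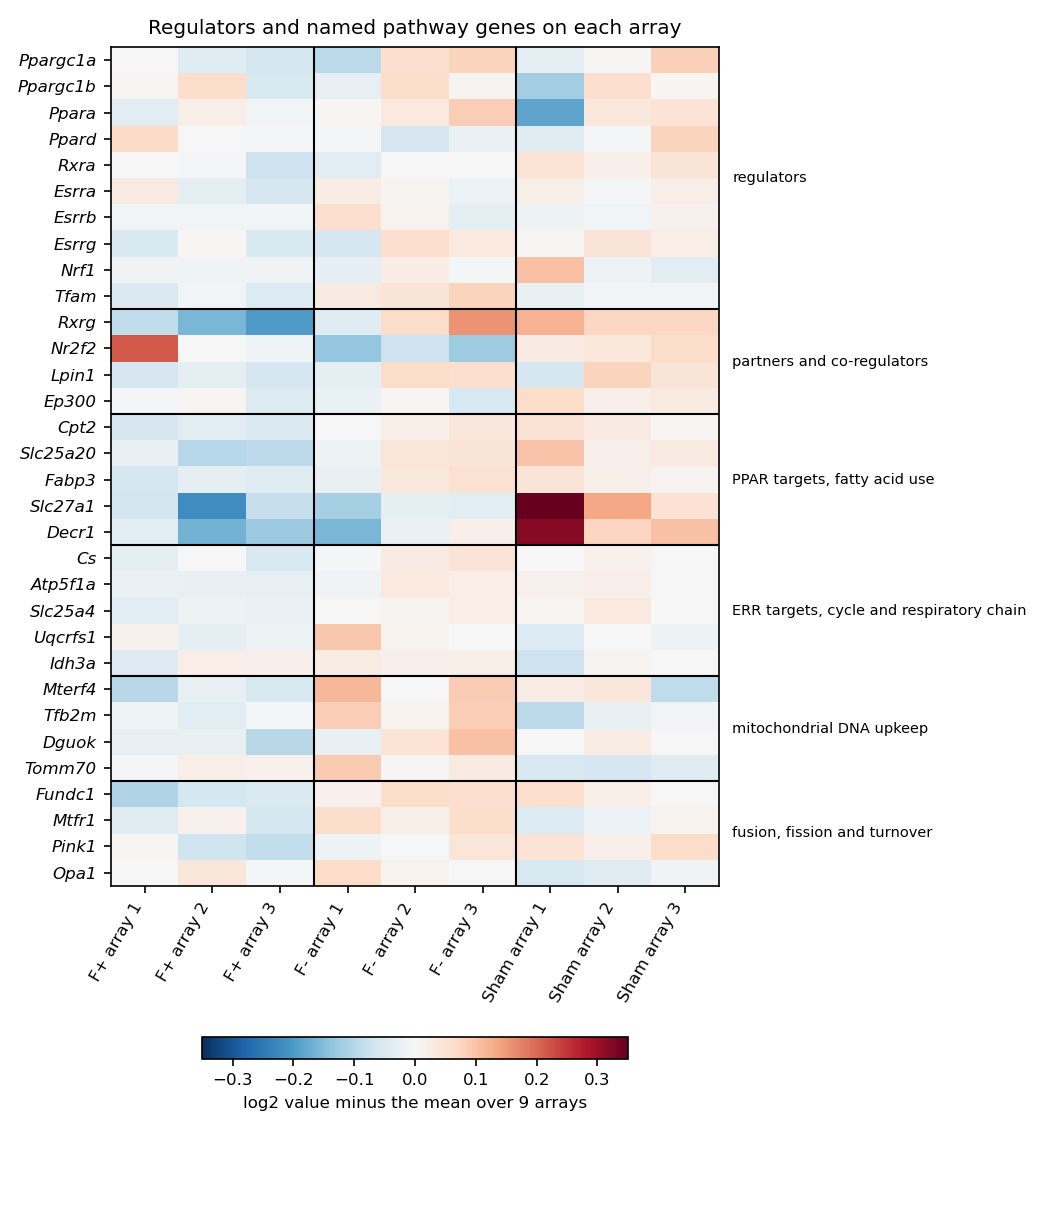
Log2 deposited value minus the gene's mean over the 9 arrays (colour, blue below and red above the mean, limits of 0.35 either side, beyond which the colour no longer changes) for the 10 regulators and the named genes of the 5 lists, by array from F+ to F- to Sham. The F- cells of Tfam, Tfb2m and Mtfr1 lie above the mean but are pale, some close to white. Tfb2m and Mtfr1 were named by comparisons that share the F- arrays. The Sham array 1 column is blue for Ppara and Ppargc1b and dark red for Slc27a1 and Decr1.

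For Ppargc1a, the features whose log2 values followed it most closely over the 9 arrays were Ndufv3, an accessory subunit of complex I (Pearson r = 0.993), Tex9 (0.951), the glutaredoxin Glrx (0.945), the oxidation resistance gene Oxr1 (0.944) and the glutathione transferase Gstm7 (0.941). They are the highest r of 15310 features over only 9 arrays, which share groups and any array-wide effect, and are given as a description. Ndufv3 had 60.4, 58.0 and 57.5 in F+, 56.4, 63.3 and 63.6 in F-, and 58.6, 60.9 and 63.7 in Sham. Like Ppargc1a, it was lowest on F- array 1 and highest on Sham array 3.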

How the data were processed

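Total RNA of right ventricles was measured on 9 arrays. Per the labels it was extracted with Sepasol and labelled as cRNA, whereas the methods name TRIzol and sense-strand cDNA. The authors deposited 1 score per feature and array, from 1.0 to 190.4, with array medians of 33.4 to 33.9. The deposited scores are taken as normalized between arrays, and the method and scale are not given in the sources used here. Fold change sizes therefore hold for the deposited scale only. There were 0 columns left unused.

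Of 29215 features, 15310 carried 1 symbol in the platform annotation, 323 several and 13582 were not listed. RefSeq (GRCr8) held the gene IDs of 15279 of them, including those of all 10 regulators. A linear model with 1 mean per group was fitted to the log2 scores of all 9 arrays, without pseudocount or filter, using lmFit and eBayes of limma 3.58.1 (R 4.3.3). Benjamini-Hochberg adjustment covered every feature, with a threshold of 0.05. A gene with several features was taken at its highest mean. The number of arrays limits the precision. Python 3.11.15 (matplotlib 3.10.9) served for promoter searches and plots.

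The regulators, gene lists and markers were chosen with earlier results of these data known, so no list was given a test. The text names all 10 regulators, from each of the 5 lists the 3 genes with the largest moderated statistic in F+ against F- and the 2 with the largest in F- against Sham, and the 5 genes most like Ppargc1a. Both comparisons hold the F- arrays, so this choice favours list genes whose F- arrays lie apart from both other groups. Others are marked as named after their values were seen. The alternatives were a replicate block, a filter on the dimmest 33.3% of features, quantile normalization or median centring, untransformed values or their square roots, robust priors with a mean-variance trend, fits to only the groups compared and each array left out in turn. Leaving out Sham array 2 and F- array 1 together was added after seeing the data.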

Additional observations from a re-analysis of the deposited data

Results flagged for a closer look

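Mterf4 was the 1 gene among the regulators and the named list genes for which every F+ array was below the Sham mean and every F- array above it. The mean log2 difference from Sham was -0.052 in F+ and 0.075 in F-, so that the groups differed by -0.127. Without Sham array 3 the difference from Sham was -0.093 in F+ and 0.034 in F-, and without Sham array 2 it was -0.028 in F+. The flagged pattern was lost in both cases. F- array 2 (54.1) lay below the Sham mean without Sham array 3, and F+ array 2 (53.2) lay above it without Sham array 2. limma's test of that difference, F+ against F-, gave an adjusted p of 0.655.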

How the results depend on the processing

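The count of 0 regulators passing limma's test held in all 3 comparisons under every alternative run, and the lowest adjusted p of any regulator under any of them was 0.253 (Tfam in F+ against F-, without F- array 1). Leaving out each array in turn gave Tfam log2 fold changes of -0.100 to -0.075 in F+ against F- and 0.055 to 0.078 in F- against Sham. Other choices among a gene's features were planned and not run. Each regulator had 1 feature, so they cannot change its values. Of 450 values of the regulators under alternatives, 425 kept their sign or were 0 at 3 decimals and 25 did not, all of these lying between -0.051 and 0.05. The value was 0 for Esrrb (-0.023) in F+ against F- when F- array 1, alone or together with Sham array 2, was left out, and for Esrra in F- against Sham with median centring. Of the differences printed for list genes, 493 values under alternatives kept their sign and 2 did not, both of Rxrb in F+ against F- (-0.021 without F+ array 1 and -0.013 without F- array 3, over a range of -0.021 to 0.032).

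The count of features called in F+ against F- was 1, and it was 3 without the dimmest features, with a mean-variance trend and robust priors, with untransformed values and with Sham array 2 and F- array 1 left out. It was 0 with only the groups compared and with the replicate block, and 0 to 3 when each array was left out. In F+ against Sham it was 0, and 1 with only the groups compared and with those 2 arrays left out. The cause was not tested. Deviations from the group means correlated at -0.205 to 0.053 between same-numbered arrays of 2 groups, and at -0.115 to 0.264 between arrays of other numbers. With 3 arrays per group this cannot settle whether arrays that share a replicate number belong together. The replicate block made 0 calls in every comparison.

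Signs turned as follows. In F- against Sham, Ppargc1a (-0.004) was 0.005 with median centring and 0.043 with the 2 arrays left out, where Esrrb was -0.009 and Esrrg 0.033. In F+ against Sham, Esrrb was 0.001 with quantile normalization and with median centring. Over the arrays left out in turn, the range in F+ against F- was -0.038 to 0.019 for Ppargc1b, -0.023 to 0.007 for Nrf1 and -0.028 to 0.009 for Rxra. In F+ against Sham it was -0.051 to 0.065 for Ppara, -0.015 to 0.045 for Ppard, -0.028 to 0.062 for Ppargc1b, -0.055 to 0.016 for Nrf1 and -0.013 to 0.004 for Esrrb. In F- against Sham it was -0.002 to 0.115 for Ppara, -0.019 to 0.072 for Ppargc1b, -0.047 to 0.024 for Nrf1, -0.035 to 0.050 for Ppargc1a, -0.006 to 0.039 for Esrrb, -0.036 to 0.023 for Esrrg and -0.018 to 0.004 for Esrra. Square roots of the values have another unit, in which Tfam differed by -0.222 in F+ against F-, and this size cannot be set against a log2 fold change. The count of PPAR targets lower in F+ against Sham at an unadjusted p of 0.05 was 10 to 20 over all alternatives.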
